A study of Mus musculus with 12 samples.

Results

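The genes described here are nuclear genes for subunits of the mitochondrial respiratory chain, measured by RNA sequencing in the cortex of adult mice with 3 genotypes of Tet1. Members were chosen by symbol alone: the Nduf subunits of complex I, Sdha to Sdhd of complex II, the Uqcr subunits of complex III and the Cox4 to Cox8 subunits of complex IV, with assembly factors and pseudogenes left out. The rule found 67 members among 21738 gene symbols. By symbol, 37 were placed in complex I, 4 in complex II, 8 in complex III and 18 in complex IV. Ndufa4 and its relative Ndufa4l2 were thus counted with complex I. Subunits of the ATP synthase and the subunits encoded by mitochondrial DNA are not analysed here. Of the 67 members, 60 passed the filter on low counts and were tested. Ndufa4, Ndufa9, Sdhc, Cox6b2, Cox7b2, Cox8b and Cox8c did not pass it.

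The 3 groups carried the genotypes WT, HxD and KO at Tet1, whose product oxidises methylated cytosine in DNA. Each had 4 libraries of poly(A)-selected RNA from whole cortex. HxD is also the name of the iron-binding motif in the catalytic site of TET enzymes, and by its title the study separates what TET1 does through catalysis from what it does without it. The sources used here do not tell how the alleles were made, nor the strain or exact age. Nothing in the labels ties a library to an animal of its own, and the p-values below therefore cover only the spread among these 12 samples, part of which may be technical.

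Respiratory complexes I, III and IV pump protons across the inner mitochondrial membrane as electrons pass from NADH to oxygen, and complex II feeds electrons in from succinate. Neurons depend heavily on this pathway to fuel ion pumping and synaptic transmission. The nuclear subunits are built in the cytosol, imported and joined to a small core encoded by mitochondrial DNA, and many of their genes are known targets of the transcription factors NRF1, GABP (an ETS factor), YY1 and ERR.

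Between 5791642 and 10915574 estimated counts were listed per library, fewest in KO. These totals bear on counting error, and any other effect of them was not tested. The members took 0.861% to 1.02% of a WT library, 0.852% to 1.05% of an HxD library and 0.977% to 1.19% of a KO library. The table gives Tet1 a count of 0 in each WT and KO library and 1, 0, 63 and 67 in HxD 1 to 4, so the genotype labels could not be checked with it. Gapdh, which every cell uses, was also listed at 0 in all 12 libraries, and a 0 is therefore given below only as listed at 0. Markers of neurons, astrocytes and oligodendrocytes were present in every library. Listed at 0 throughout were Csf1r of microglia, Pecam1 of endothelium, Zbtb20 of the hippocampus list, the muscle genes Ckm, Tnnt2 and Tnni2 and the testis gene Tnp1, and like Gapdh these zeros give no check on the tissue. Summed markers of oligodendrocytes spanned 1865 to 4441 CPM (counts scaled to a common library size) for WT, 1357 to 3980 for HxD and 3012 to 3560 for KO, and the 5 excitatory neuron markers from 2598 to 3754, 2341 to 3398 and 2272 to 2742. Choroid plexus markers summed to 4.50 to 34.5 CPM for WT, up to 265 for HxD and at most 8.68 for KO, and striatum markers to 359 to 636, 232 to 1082 and 269 to 408. Markers of oligodendrocyte precursors lay at 109 to 130.2, 17.7 to 166 and 32.1 to 117 CPM. For every marker list the ranges of any 2 genotypes overlapped. The part that cell composition plays in the results below was not tested. In whole tissue, fewer cells of a type and less RNA per cell cannot be told apart.

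Promoter sequences from RefSeq (build GRCm38.p6, 250 bases before to 50 bases after the start) were matched for 53 of the 67 members. Exact matches to known motifs were searched on both strands. The NRF1 core GCGCATGCG, read as CGCATGCGC on the other strand, lay in the promoters of 5 members (9.43%, against 1.95% of 27025 genes with a promoter). The ETS motif CCGGAAG, read as CTTCCGG on the other strand, lay in 11 (20.8%, against 9.93%), and the YY1 core AAGATGGCG (CGCCATCTT) in 5 (9.43%, against 1.64%). As longer strings of 10 and 11 letters, the NRF1 and YY1 motifs lay in 3 and 4 members (5.66% and 7.55%, against 1.07% and 0.755%). The ERR motif TCAAGGTCA lay in 1 (1.89%, against 0.466%), the Sp1 motif GGGCGG in 22 (41.5%, against 38.2%) and the letters TATAAA in 6 (11.3%, against 15.7%). Member promoters held a median of 19 CpG sites per 300 bases, and all promoters a median of 7. The comparison set was neither restricted to expressed genes nor matched for CpG sites. The NRF1, ETS, YY1 and Sp1 strings each hold a CG. A match describes the letters of the window and is not a measured binding site.

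Promoters of Cox6a1, Ndufa11 and Uqcrc1 are printed because they carry the full NRF1 palindrome known from this gene family. Those of Ndufs4 and Uqcr10 are added because these RNAs stood out in the comparisons below. Each runs 5′ to 3′ on the strand of its gene, with the NRF1, ETS and YY1 matches in capitals. They lie at chr5:115348909-115349208 (minus strand, Cox6a1), chr17:56717512-56717811 (plus strand, Ndufa11), chr9:108936398-108936697 (plus strand, Uqcrc1), chr13:114388045-114388344 (minus strand, Ndufs4) and chr11:4704295-4704594 (minus strand, Uqcr10).
Cox6a1: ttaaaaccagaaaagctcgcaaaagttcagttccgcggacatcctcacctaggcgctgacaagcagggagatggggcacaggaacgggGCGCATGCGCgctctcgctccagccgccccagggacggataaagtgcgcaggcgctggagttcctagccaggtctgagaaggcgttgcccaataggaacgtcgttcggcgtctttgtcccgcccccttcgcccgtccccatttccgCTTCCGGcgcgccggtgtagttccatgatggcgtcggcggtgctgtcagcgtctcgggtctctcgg
Ndufa11: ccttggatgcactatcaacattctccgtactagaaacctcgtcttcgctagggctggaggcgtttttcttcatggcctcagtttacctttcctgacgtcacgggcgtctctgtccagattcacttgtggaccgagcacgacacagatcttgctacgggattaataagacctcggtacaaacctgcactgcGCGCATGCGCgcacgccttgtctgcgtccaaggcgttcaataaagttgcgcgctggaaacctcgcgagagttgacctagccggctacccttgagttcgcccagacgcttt
Uqcrc1: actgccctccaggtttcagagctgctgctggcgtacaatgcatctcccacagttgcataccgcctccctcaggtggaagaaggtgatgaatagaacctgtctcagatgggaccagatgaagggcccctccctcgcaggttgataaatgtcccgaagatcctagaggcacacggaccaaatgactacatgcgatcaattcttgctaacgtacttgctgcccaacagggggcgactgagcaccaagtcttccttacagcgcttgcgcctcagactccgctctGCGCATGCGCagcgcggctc
Ndufs4: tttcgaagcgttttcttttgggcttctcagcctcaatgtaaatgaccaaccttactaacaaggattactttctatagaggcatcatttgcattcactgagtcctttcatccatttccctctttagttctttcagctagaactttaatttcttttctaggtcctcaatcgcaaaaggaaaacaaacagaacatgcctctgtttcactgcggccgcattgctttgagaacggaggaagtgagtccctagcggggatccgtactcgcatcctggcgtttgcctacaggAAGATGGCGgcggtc
Uqcr10: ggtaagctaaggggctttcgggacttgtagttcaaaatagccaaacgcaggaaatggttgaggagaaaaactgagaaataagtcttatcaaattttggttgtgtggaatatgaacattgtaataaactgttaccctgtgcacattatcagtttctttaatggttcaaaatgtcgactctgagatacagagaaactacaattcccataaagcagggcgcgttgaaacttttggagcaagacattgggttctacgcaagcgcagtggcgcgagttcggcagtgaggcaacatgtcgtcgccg
In Cox6a1 the NRF1 match began 162 bases before the start and an ETS match 16 bases before it. In Ndufa11 the NRF1 match began 60 bases before the start, and in Uqcrc1 30 bases after it. In Ndufs4 a YY1 match began 35 bases after the start. The Uqcr10 window held none of the NRF1, ETS or YY1 strings searched.

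In WT cortex the members were abundant RNAs. The median member had a mean of 109 CPM, where the median over all 11693 tested genes was 25.4 CPM. To compare genes, CPM was divided by the length of the principal GENCODE transcript in kilobases (kb). Per kb, the median member stood at 109 CPM in complex I, 155 in complex II, 146 in complex III and 232 in complex IV. Cox8a, the smallest subunit of complex IV, was the highest tested member at 1420 ± 108 CPM per kb (SD, n = 4), followed within its complex by Cox6a1 at 924 ± 38.1. Ndufb9, an accessory subunit of the membrane arm, led complex I at 447 ± 68 CPM per kb, and Ndufb5, of the same arm, was lowest among its tested members at 1.99 ± 1.67. Ndufb5 held only 10, 27, 37 and 4 counts in WT 1 to 4, and part of its exons overlaps another gene on the opposite strand. Gapdh was listed at 0 in the same libraries. Whether the low value of Ndufb5 reflects the cells or the counting was not tested. Sdha, the flavoprotein that oxidises succinate, stood at 221 ± 9.51 CPM per kb, above Sdhb (the iron-sulphur subunit) at 155 ± 12 and the membrane anchor Sdhd at 112 ± 7.66, and these 3 levels lay further apart than their SDs. Uqcrc1, a core protein of complex III, reached 223 ± 23.4 CPM per kb.

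**Figure D1:**
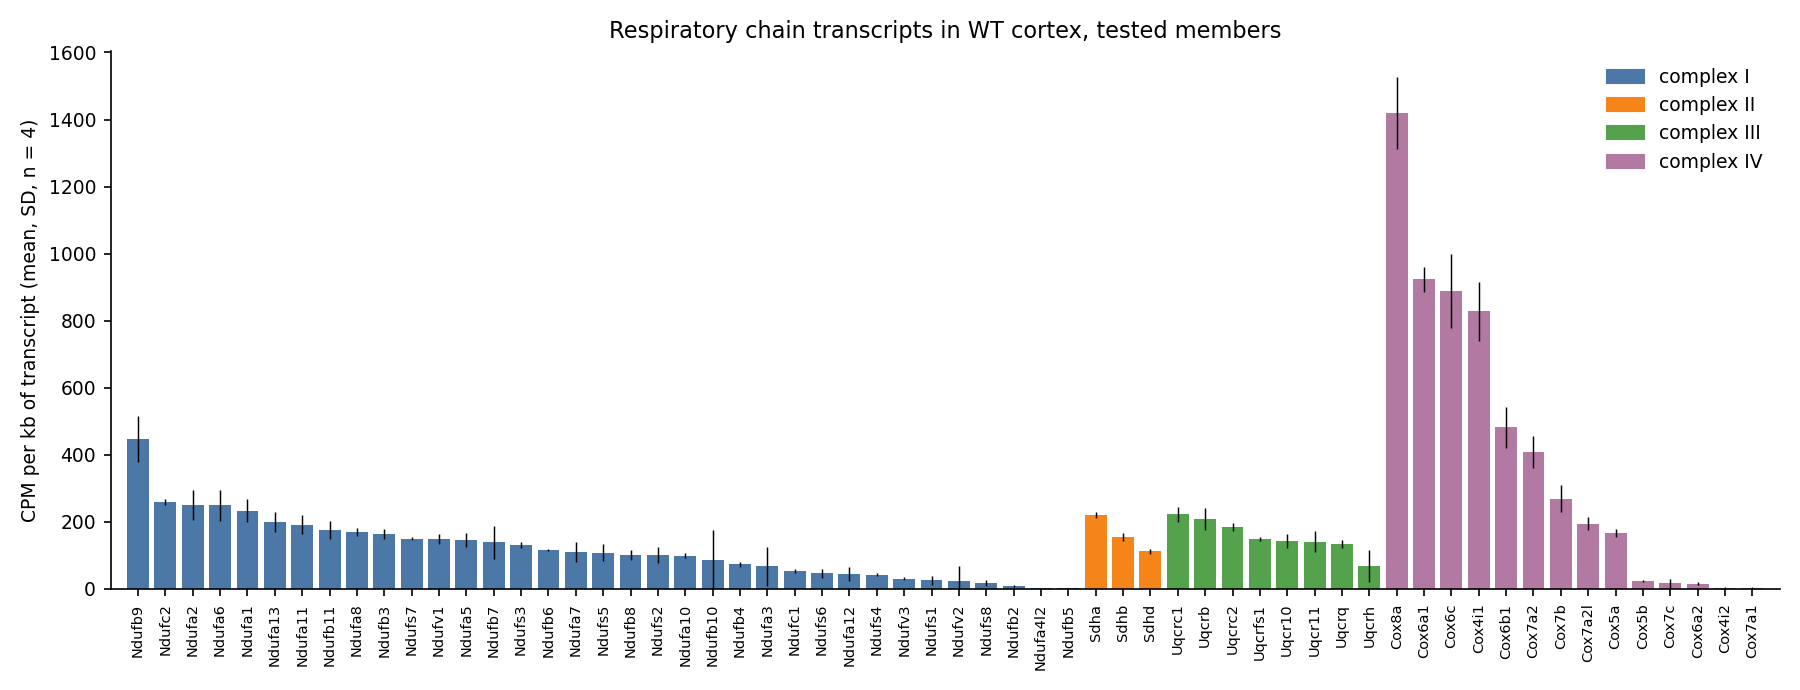
Mean level of the 60 tested members in WT, in CPM per kb of principal transcript, ordered within each complex (bars: mean of 4 WT libraries, lines: SD, cut at 0). Complex IV holds both the highest member, Cox8a at 1420, and one of the lowest, Cox7a1 at 2.66.

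Several complex IV subunits exist as a ubiquitous form and a form known from muscle, lung, testis or hypoxic cells. In cortex the second form was a small fraction of each pair. Cox4i2, the oxygen-responsive partner of Cox4i1, made up 0.442% of the pair's RNA per kb in WT (mean over the libraries). Cox6a2, the heart and muscle form of Cox6a1, made up 1.68% and stood at 8.67, 7.90, 13.7 and 12.7 CPM in WT 1 to 4. Cox7a1, the muscle form of Cox7a2, made up 0.672%. The testis forms Cox6b2 and Cox7b2 made up 0.143% and 0.312%, Cox8b was listed at 0 in WT, and Cox8c was at 0 in all 12 libraries. Cox7a2l, which joins complexes III and IV into supercomplexes, was the exception at 32.3% of the RNA that it and Cox7a2 gave per kb. Ndufa4l2, a hypoxia-induced relative of Ndufa4, was present at 2.38 to 4.13 CPM in WT, and HxD spanned 2.24 to 4.09. It was listed at 0 in KO 1 and KO 4 and reached 3.42 CPM in KO 3. None of the tested forms of these pairs passed edgeR's quasi-likelihood test over all genes, and Cox6b1 and Cox8a had the smallest unadjusted p in KO against WT (0.043 and 0.037).

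Counts of 5 members jumped within a genotype, by more than 10-fold or between 0 and at least 100 counts. Ndufa4, now assigned to complex IV, held 1449 counts in WT 3 and 0 in the other 11 libraries. Ndufv2, an iron-sulphur core subunit of the NADH-oxidising module, held 1336 counts in WT 1 and at most 19 elsewhere. Ndufb10, an accessory subunit of the membrane arm, held 1033, 77, 58 and 1213 counts in WT 1 to 4, 324, 282, 304 and 280 in HxD and 31, 45, 58 and 34 in KO. WT libraries thus stood in a high pair and a low pair, while the 4 libraries within HxD and within KO lay close together. Uqcrh, the hinge protein of complex III, was listed at 0 in WT 2, HxD 2, HxD 3 and KO 1 and at 264 to 602 counts elsewhere. Cox7c, a small subunit of complex IV, was listed at 0 in WT 4 and reached 145 in WT 2.

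Such jumps were found in 5 of the 57 members that reach 100 counts in a library (8.77%) and in 1539 of all 9250 symbols that do (16.6%). Copies of at least 95% identity over 150 bases or more in annotated pseudogenes were found for 0 of these 5 members and for 12 of the other 52. The cause of the jumps was not tested. Reads of the 12 members with such a copy may be shared with it, and so may reads of 21 tested members with an exon stretch in common with another gene, 18 of them only with genes on the opposite strand.

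**Figure D2:**
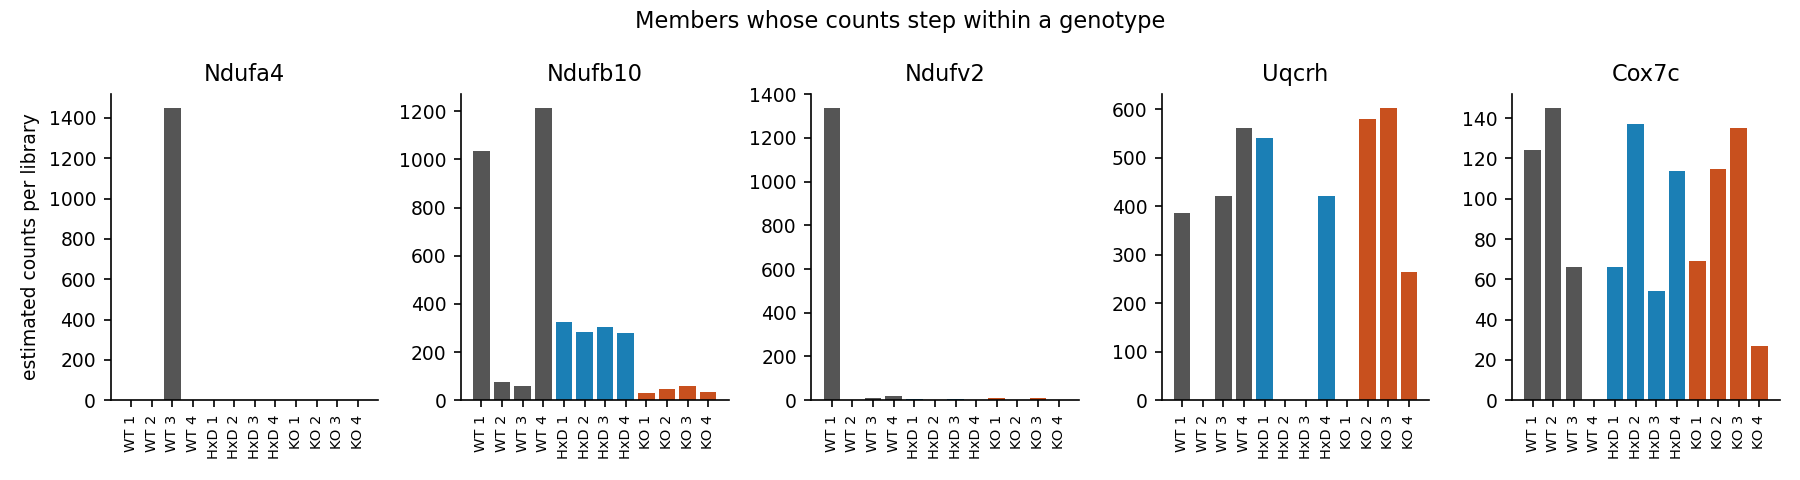
Estimated counts per library of the 5 members whose counts jump within a genotype (grey WT, blue HxD, orange KO, each panel with its own axis from 0). Ndufa4 and Ndufv2 are carried by 1 WT library each, and Uqcrh is at 0 in 4 of 12 libraries.

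In KO against WT most members had slightly higher values, and none passed the test on its own. The median member had a log2 fold change of 0.22, against 0.01 over all tested genes, and 51 of 60 lay above 0, where 50.9% of all tested genes did. Every complex had a median above 0: 0.24 in complex I (28 of 35 above 0), 0.11 in complex II (3 of 3), 0.19 in complex III (8 of 8) and 0.21 in complex IV (12 of 14). Within complex I the medians were 0.23 for the core subunits, 0.25 for the Ndufb accessory subunits and 0.24 for the others. At a Benjamini-Hochberg adjusted p below 0.05 in edgeR's quasi-likelihood test, 0 of 60 members were called (0.154% of all tested genes). At an unadjusted p below 0.05 there were 9, against 9.48% of all tested genes. Of these 7 were higher (4.22% of all tested genes) and 2 lower (5.26%). Limma-voom called 0, and also 0 of all tested genes. The DESeq2 Wald test called 1, Ndufb10, and 2.46% of all tested genes. The 2 lower members, Ndufb10 and Ndufv2, are among those with jumps.

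Among the members higher in KO, Uqcr10, a small subunit of complex III, had the smallest p. It stood at 50.2, 71.0, 64.3 and 62.6 CPM in WT 1 to 4 and at 108.4, 72.1, 82.6 and 94.3 in KO. The 4 KO libraries lay above all WT libraries, although KO 2 exceeded WT 2 by little. The log2 fold change was 0.53 ± 0.15 (SE, 1.44-fold, unadjusted p = 0.0052, edgeR adjusted p = 0.279). Ndufs4, an accessory subunit of complex I whose loss models Leigh syndrome in mice, measured 71.6, 61.5, 75.2 and 77.8 CPM in WT and 79.0, 97.3, 103.8 and 83.4 in KO. Its groups did not overlap either, with a log2 fold change of 0.35 ± 0.11 (edgeR adjusted p = 0.353). Ndufs1, the largest iron-sulphur core subunit, measured 19.5, 71.0, 94.7 and 88.8 CPM in WT and 180.2, 214, 105 and 152 in KO, with WT 1 far below the rest. Its 2.38-fold difference (log2 1.25 ± 0.48) had an adjusted p of 0.445 in edgeR, and part of its exons overlaps other genes on the opposite strand.

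Libraries of the 2 groups were apart for 5 members that were higher in KO (Uqcr10, Ndufs4, Ndufs1, Ndufv3 and Sdhb), where 3.25% of tested genes were. Ndufv3, an accessory subunit of the NADH-oxidising module, measured 40.7 to 55.4 CPM in WT and 56.7 to 71.1 in KO (log2 fold change 0.38 ± 0.14). Sdhb measured 157 to 188 CPM in WT and 191 to 203 in KO (0.13 ± 0.07). Cox8a and Cox6b1 of complex IV had log2 fold changes of 0.26 ± 0.11 and 0.23 ± 0.10, and the accessory subunits Ndufc1 and Ndufa13 of complex I 0.23 ± 0.08 and 0.25 ± 0.11, each with overlapping libraries. The catalytic subunit Sdha had close values, at 641 ± 27.6 CPM in WT and 646 ± 20.4 in KO (0.01 ± 0.06).

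Lower in KO was Ndufb10, at 118, 7.33, 7.05 and 122 CPM in WT 1 to 4 and 5.31 to 6.20 in KO, where 3.95% of tested genes had all KO libraries below WT. The fitted log2 fold change of -3.44 ± 0.87 had an adjusted p of 0.209 in edgeR and of 0.00113 in the DESeq2 Wald test. The low pair of WT libraries lay close to KO, so the size of the fold rests on WT 1 and WT 4. Ndufv2 had a fitted value of -5.52 ± 1.82 (edgeR adjusted p = 0.354), which was -0.49 without WT 1.

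**Figure D3:**
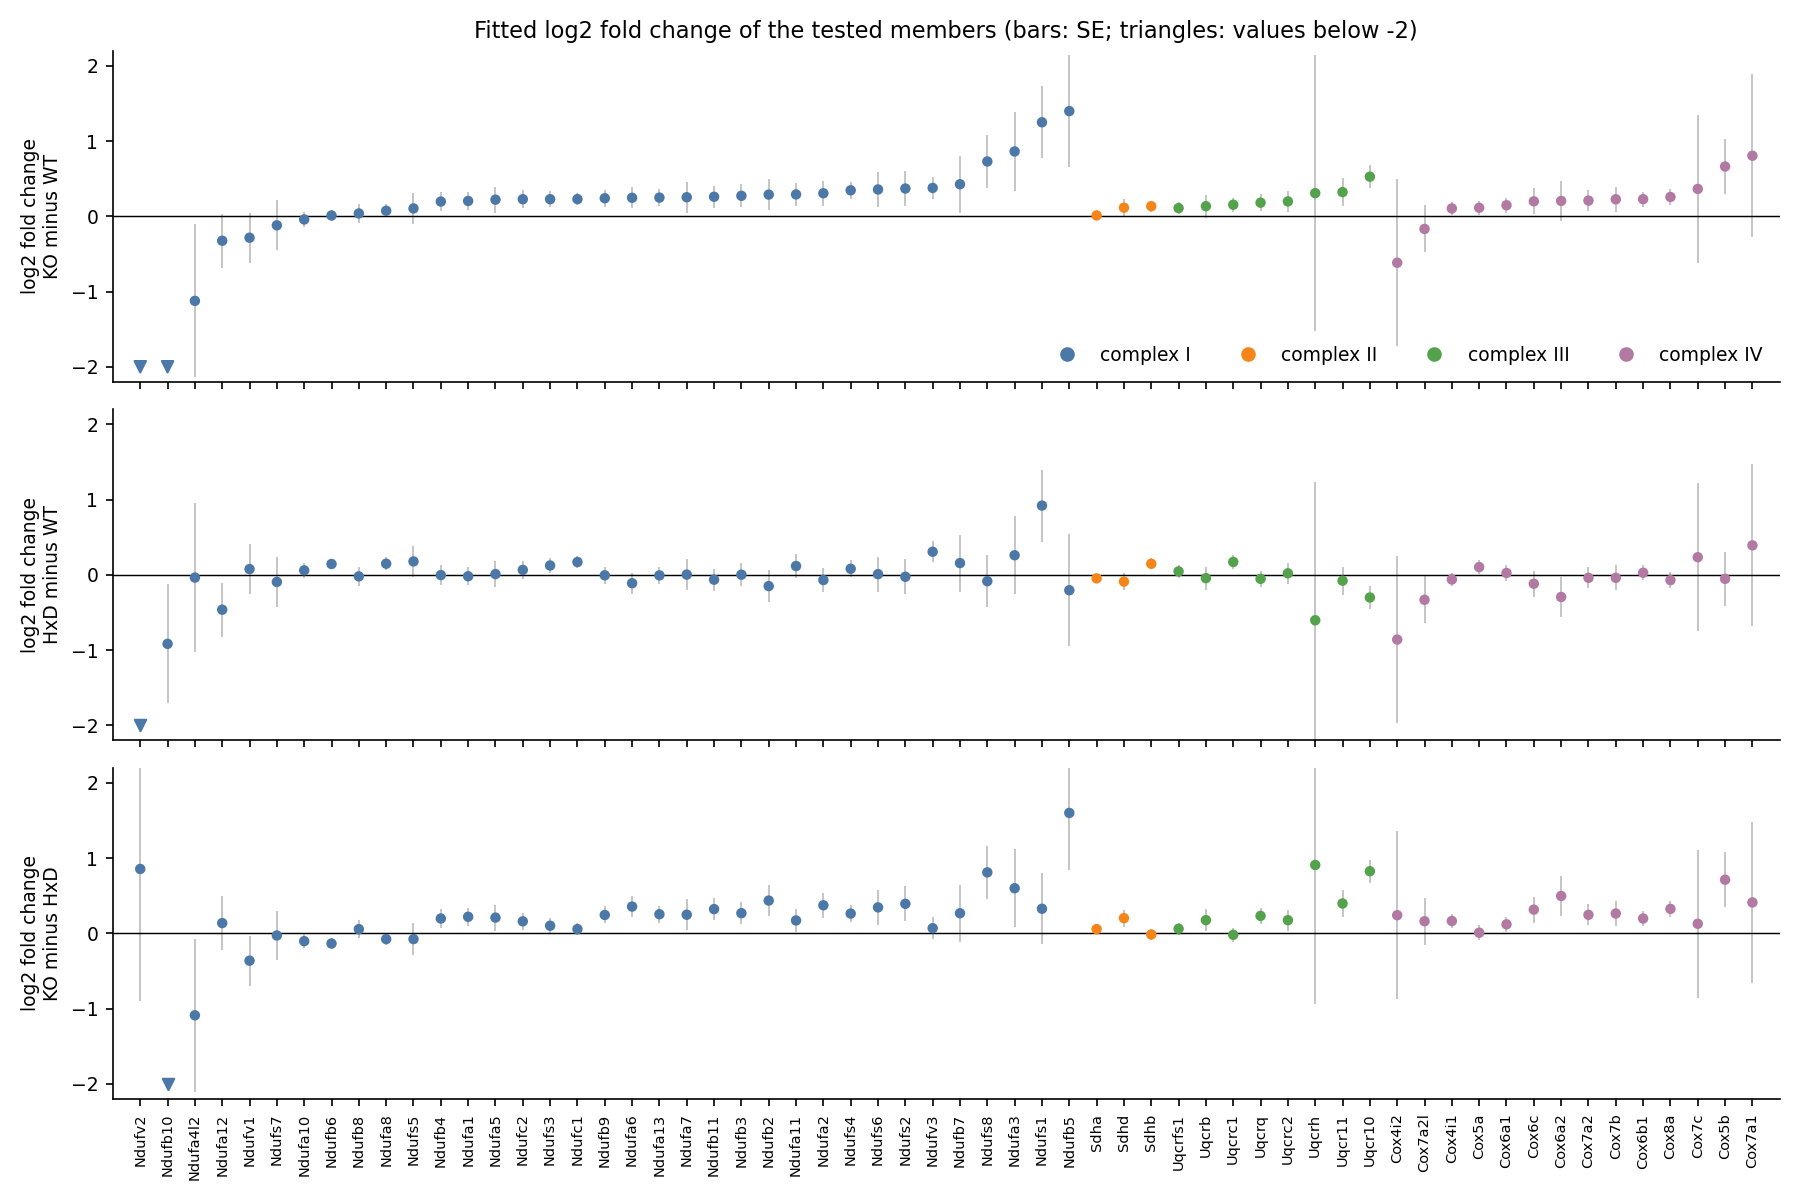
Fitted log2 fold change of each tested member for KO minus WT, HxD minus WT and KO minus HxD, in the same order of members in all 3 panels (lines: SE, cut at the axis limits; triangles: values below -2). In the top panel 51 of 60 points lie above 0, in the middle panel 27 and in the bottom panel 50.

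The members were not alike in every KO library. A library score was taken as the median over members of log2 CPM minus each gene's mean over all 12 libraries. Scores were -0.15, -0.17, 0.04 and 0.05 in WT 1 to 4, -0.01, 0.12, -0.18 and -0.08 in HxD and 0.10, 0.32, 0.17 and -0.01 in KO. KO 2 was highest and KO 4 lay below WT 3 and WT 4, so the groups overlapped. Leaving out KO 2 lowered the KO minus WT median from 0.22 to 0.14, and leaving out WT 2 lowered it to 0.15.

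Transcript length moved with this result. The 60 members are short, with a median of 764 bases (393 to 4371) where the median tested gene has 3013, and 55 of them fall into the 2 shortest of 10 equal bins of all tested genes. In KO against WT the other genes of the shortest bin had a median log2 fold change of 0.13, against 0.23 for the 46 members in it. This bin spans 70 to 1249 bases with a median of 945, and members and other genes were not matched in length within it. In the next bin the values were 0.07 for other genes and 0.18 for 9 members, and the longest bin had -0.12. Per doubling of transcript length, log2 CPM over all tested genes changed by 0.08, 0.10, 0.01 and -0.00097 in WT 1 to 4, 0.03, -0.14, 0.06 and 0.08 in HxD and -0.02, -0.11, -0.10 and -0.00077 in KO. HxD 2, KO 2 and KO 3 had the steepest negative slopes and also the 3 highest member scores.

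With this trend removed from each library by a spline, the median of the members in KO against WT was 0.03, with 36 of 60 above 0 and 5 at an unadjusted p below 0.05. Of all 11693 tested genes 5843 then lay above 0, and 8.58% had such a p. Fitted without the members the trend left a median of 0.03, and without the members and ribosomal protein genes 0.05. Scores per library were then 0.02 ± 0.04 in WT and 0.04 ± 0.06 in KO (SD, n = 4). A trend over all short transcripts and a joint change of the members cannot be told apart where nearly all members are short. Uqcr10 had a log2 fold change of 0.28 ± 0.19 after this step (edgeR adjusted p = 0.756), Ndufs4 0.26 ± 0.09 and Ndufs1 1.26 ± 0.48, while Cox8a dropped to 0.02 ± 0.06.

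**Figure D4:**
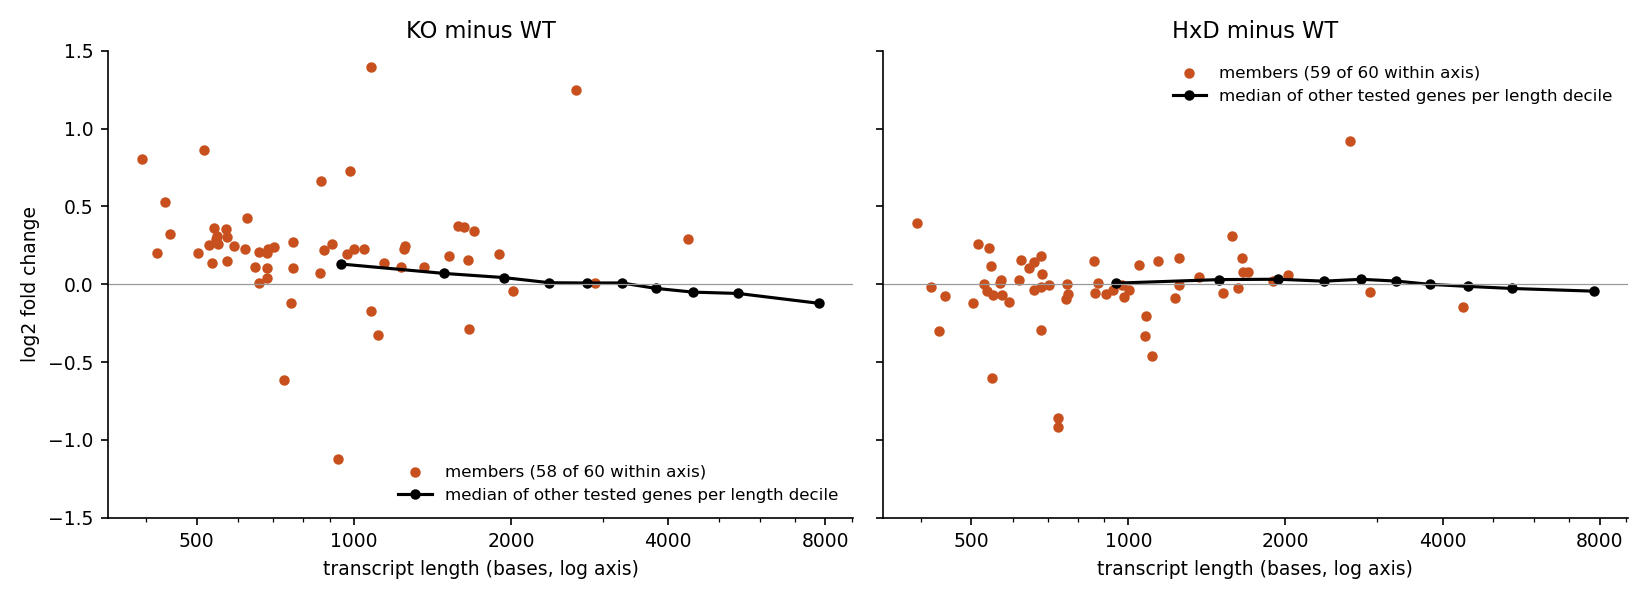
Log2 fold change of the members (orange points) against transcript length on a log axis, with the median of the other tested genes in each of 10 length bins (black), for KO minus WT and HxD minus WT. In KO the black line goes from 0.13 for the shortest bin to -0.12 for the longest, and in HxD from 0.01 to -0.04.

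**Figure D5:**
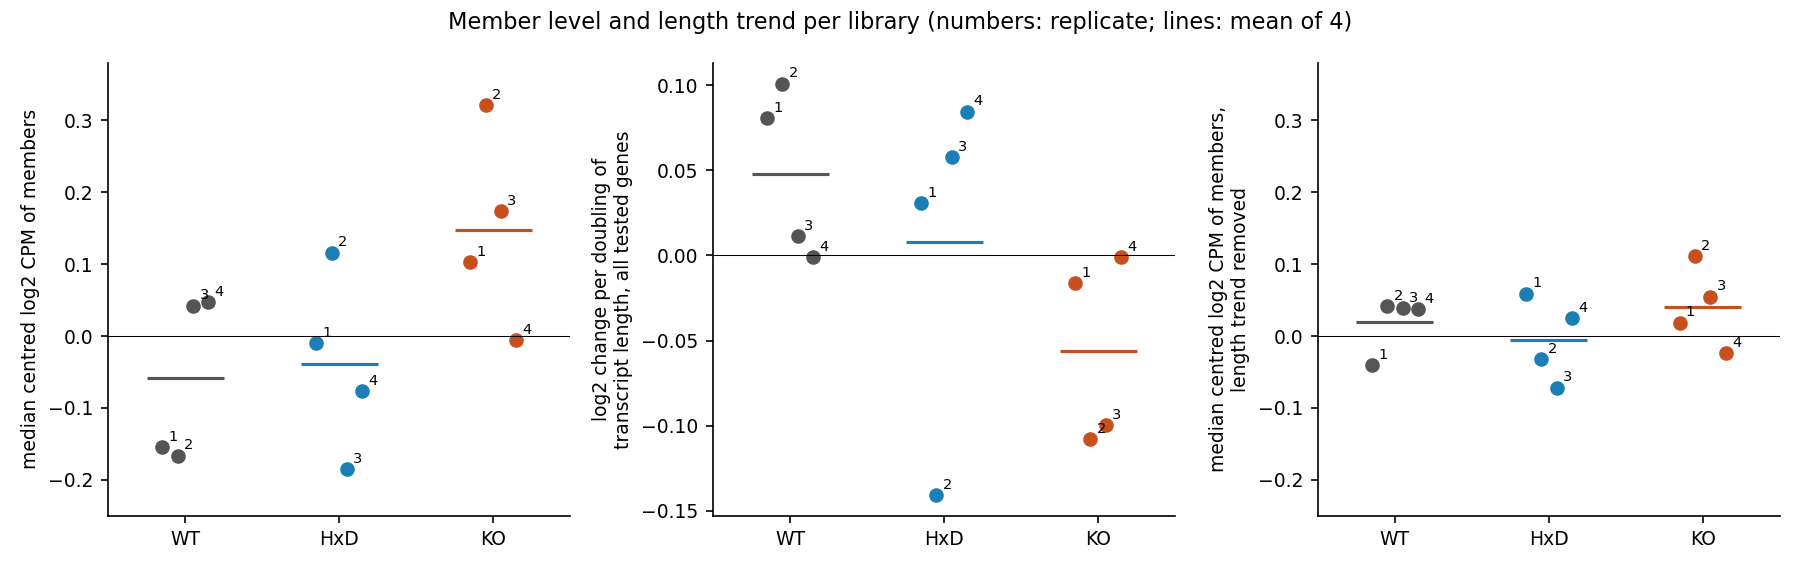
Left, member score of each library (median log2 CPM relative to each gene's mean). Middle, slope of log2 CPM on transcript length over all tested genes. Right, member score with the length trend removed (points: libraries with replicate numbers, lines: mean of 4). The KO mean is 0.15 on the left and 0.04 on the right.

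In HxD the values of the members lay on both sides of WT. Against WT the median member had a log2 fold change of -0.01, with 27 of 60 above 0 where 51.3% of all tested genes were. By complex the medians were 0.00 in complex I, -0.05 in complex II, -0.05 in complex III and -0.05 in complex IV. The edgeR test called 0 members, where 0.898% of all tested genes were called, and 1 had an unadjusted p below 0.05 (4.05% of all tested genes, 2.15% in the lower direction). That member was Ndufv2, whose fitted value of -6.38 ± 1.9 (adjusted p = 0.482) was -1.35 without WT 1. The DESeq2 Wald test and limma-voom also called 0 members, with 1.47% and 0.701% of all tested genes called.

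Groups were apart for 1 member, the accessory subunit Ndufb6, where 1.76% of tested genes were apart and higher in HxD. Its libraries measured 80.2, 76.3, 74.4 and 74.99 CPM in WT and 86.9, 81.8, 87.1 and 82.2 in HxD (log2 fold change 0.14 ± 0.07, edgeR adjusted p = 0.999). Beside Ndufb6 and Ndufv2, the next members by p, 8 in all, had unadjusted edgeR p from 0.0551 to 0.226 and thus none below the threshold. These were Ndufv3 at 0.31 ± 0.14, Ndufc1 at 0.17 ± 0.08, Uqcrc1 at 0.17 ± 0.10, Sdhb at 0.15 ± 0.07, Ndufa8 at 0.15 ± 0.08 and Ndufs1 at 0.92 ± 0.48 above WT. Below WT stood Uqcr10 at -0.30 ± 0.15 and Ndufa12 at -0.46 ± 0.36. Ndufa12 rests on WT 1, which held 83.8 CPM against 31.8 to 40.1 in the other WT libraries. HxD and KO were both compared with the same WT libraries, so these values are set side by side and not counted as independent.

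The direct difference between KO and HxD had a median of 0.22 over the members, with 50 of 60 above 0 (50.2% of all tested genes). All 14 tested complex IV members lay above 0, with a median of 0.25. Of the 60, edgeR called 1, Uqcr10, where 1.02% of all tested genes were called and 0.445% were higher in KO. HxD 1 to 4 held 50.7, 58.5, 49.9 and 42.3 CPM of Uqcr10, all below the lowest KO library at 72.1. The RNA rose 1.77-fold from HxD to KO (log2 0.83 ± 0.15, edgeR adjusted p = 0.0255). This call was lost in 13 other settings and kept in 14. It was lost with the length trend removed (0.61, adjusted p = 0.270), with only the 8 libraries compared (0.0823), and without HxD 1 (0.0959), HxD 3 (0.0985), HxD 4 (0.0986), KO 1 (0.0810) or KO 4 (0.101).

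At an unadjusted p below 0.05, there were 8 members between KO and HxD, against 11.6% of all tested genes. Of these 7 were higher in KO (5.67% of all tested genes) and 1 lower (5.94%). Beside Uqcr10 these values included Cox8a at 0.33 ± 0.11, Ndufa6 at 0.36 ± 0.14, Ndufa2 at 0.37 ± 0.16, Ndufa13 at 0.26 ± 0.11, Ndufs4 at 0.26 ± 0.11 and the core subunit Ndufs8 at 0.81 ± 0.35. Ndufb11 and Ndufb9 stood at 0.32 ± 0.15 and 0.25 ± 0.11, but with unadjusted edgeR p of 0.0506 and 0.0524 they were not among the 8. Ndufb5 was apart in the 2 groups, at 0.234 to 2.69 CPM in HxD and 4.11 to 7.08 in KO, but on few counts (1.60 ± 0.75, edgeR adjusted p = 0.449), where 3.97% of tested genes lay apart in this direction.

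Ndufb10 went the other way, at 27.3 to 36.7 CPM in HxD and 5.31 to 6.20 in KO, where 3.62% of tested genes lay apart and lower. Its log2 fold change of -2.52 ± 0.84 missed the threshold in the fit of all libraries (edgeR adjusted p = 0.292), whose spread includes the split WT group. With only HxD and KO in the edgeR fit, which called 0.949% of all tested genes, the adjusted p was 9.3e-05. The DESeq2 Wald test, which called 3.4% of all tested genes here, gave 0.0361. Within WT alone the libraries stood at 118, 7.33, 7.05 and 122 CPM. A gap this wide thus also arose between libraries of the same genotype, and its cause was not tested. With the length trend removed, the median over the members in this comparison was 0.06 (38 of 60 above 0, against 50.1% of all tested genes) and 0 were called (1.01%).

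Apart from the 5 members with jumps, the spread between libraries was moderate. The median coefficient of variation over the other 56 tested members was 14.0% in WT, 11.6% in HxD and 18.0% in KO. The highest values, 94.5% in WT, 76.0% in HxD and 119% in KO, were in members with low counts. Members with more counts could vary widely too. Ndufa3 had 86.3% in WT, on 701, 208, 188 and 170 counts, and Ndufs1 had 49.9%, on 171 to 886 counts.

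Genes around the complexes were read from lists of their own, none of which had a gene called by edgeR in KO or HxD against WT. A list of 20 genes held subunits and electron carriers outside the rule together with the ADP/ATP and phosphate carriers, Vdac channels and Higd proteins. Of these 16 were tested, with a median log2 fold change of 0.10 in KO against WT (11 above 0) and 0.02 in HxD. Coq10b, which binds coenzyme Q, measured 25.9 to 47.6 CPM in WT and 43.0 to 70.8 in KO (0.83 ± 0.26, edgeR adjusted p = 0.330), and the electron transfer flavoprotein subunits Etfa and Etfb had 0.17 ± 0.12 and 0.25 ± 0.10. Over all tested genes the median against WT was 0.01 in KO and 0.01 in HxD, with 50.9% and 51.3% above 0. The 42 tested assembly factors of 48 had a median of 0.01 in KO (23 above 0, 54.8%) and -0.02 in HxD (16 above 0, 38.1%). Among them, Uqcc2, an assembly factor of complex III, stood at 44.9 to 63.7 CPM in WT and 69.0 to 84.6 in KO (0.47 ± 0.17), while Ttc19, also of complex III, was at -0.21 ± 0.10. Cox15, which makes haem A for complex IV, stood at 0.27 ± 0.10 in HxD against WT.

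Regulators of mitochondrial biogenesis, 18 tested of 27, had medians of -0.01 in KO (8 above 0) and 0.08 in HxD (14 above 0). Esrra, the gene of ERR alpha, stood at 0.43 ± 0.28 in KO against WT, the antioxidant regulator Nfe2l2 at 0.37 ± 0.14, and Ssbp1, which binds single-stranded mitochondrial DNA, at -0.67 ± 0.29. Of 22 citrate cycle and pyruvate dehydrogenase genes, 20 were tested, with a median of 0.10 in KO (16 above 0) and 0.02 in HxD (14 above 0). The cycle enzymes Idh2 and Fh1 had log2 fold changes of 0.26 ± 0.12 and 0.28 ± 0.12 in KO against WT. At an unadjusted p below 0.05 in KO against WT there were 2 of the 16 subunits and carriers, 3 of the 42 assembly factors, 2 of the 18 regulators and 2 of the 20 citrate cycle genes, against 9.48% of all tested genes. No test was made between these lists and the members. Values of these lists come from the fit with the length trend left in. Their transcript lengths were not compared with those of the members.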

How the data were processed

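RNA from 12 cortex libraries, 4 each of WT, HxD and KO, was grouped by the genotype in the labels. The authors deposited estimated counts by gene symbol and library, without normalization. Per the submitters' processing notes, which give no role or order, the tools were StringTie 2.2.3, STAR 2.7.1a, Trim Galore 0.6.7, SAMtools 1.9 and FastQC, and the builds mm10 and GRCm39. The sources used here do not name the counting step, its strand setting or the annotation, and reads assigned between isoforms, copies or overlapping genes could shift single members. Values were whole numbers, so rounding changed nothing. The 25 symbols on several rows (56 rows) were left out.

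Genes were tested with edgeR 4.0.16 in R 4.3.3 (robust quasi-likelihood F test, TMM factors, filterByExpr at a minimum count of 10, genotype as the only term over all 12 libraries), which kept 11693 genes. P-values were two-sided and adjusted over all tested genes by Benjamini-Hochberg, and a gene was called at an adjusted p below 0.05. The SE given with a log2 fold change was back-calculated from the edgeR F statistic. It is the absolute log2 fold change divided by the square root of F. CPM used TMM-scaled library sizes. Library scores used log2 of CPM plus 0.5. The length slopes, the length trend and the scores with it removed used edgeR's log2 CPM with a prior count of 0.5. Transcript lengths were those of the principal coding transcript in GENCODE M21, and Ndufb2's is 4371 bases, so its level per kb may be understated. The length trend was a natural spline with 4 degrees of freedom of centred log2 CPM on log2 length, fitted per library over 11674 genes and used as an offset. Copies were searched with blastn 2.17.0. The edgeR test and the removal of the length trend were checked on simulated negative binomial counts with planted changes. How far such counts copy the jumps within a genotype was not tested.

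Alternatives covered other scalings, filters and thresholds, DESeq2 1.42.0, limma-voom (limma 3.58.1), the replicate number as a block, subsets of members and each library left out. Variants of the length trend (longest transcripts, fitted without the members or ribosomal protein genes, with the block, or as a straight line) and leaving out members with jumps or overlaps were added after seeing the data. Members named are the 10 with the smallest p per comparison, those called, the highest and lowest per complex, those with jumps, the Sdh genes and the isoform pairs, with up to 3 genes per neighbouring list. A gene that this rule takes is not reported here. Ndufa3, Ndufa9, Ndufa11 and Ndufb2 were named outside this rule. NRF1 and YY1 cores of 9 letters were searched after longer strings. The members and lists were chosen with earlier results of these data known.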

Additional observations from a re-analysis of the deposited data

Results flagged for a closer look

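Within the groups of 4 libraries, 1 library stood apart from the other 3 in 8 of 138 tests of member CPM by genotype, and chance gives about 1 in 20. Cox7a2l, which joins complexes III and IV, stood at 68.7 CPM in HxD 3 against 189 to 210.2 in the other HxD libraries. Ndufa12 stood at 83.8 CPM in WT 1 against 31.8 to 40.1. Ndufv2 stood at 152 CPM in WT 1 against 0.286 to 1.9, and Ndufa4 at 176 CPM in WT 3 with the other WT libraries at 0. The remaining cases were single libraries with very few counts beside 3 at 0: Sdhc at 0.602 CPM in WT 4, Cox8b at 0.780 in HxD 2 and 0.428 in KO 3, and Cox7b2 at 0.321 in KO 3.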

How the results depend on the processing

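In KO against WT the median of the members was 0.027 with the length trend removed, 0.031 when fitted without the members, 0.046 without ribosomal protein genes too, 0.022 with the longest transcripts, 0.021 as a straight line and 0.028 with the replicate block added. Members at an unadjusted p below 0.05 then numbered 5 (8.53% to 8.66% of all tested genes), or 3 with the block (8.06%). Leaving out 1 library gave medians of 0.14 to 0.26, counts of 4 (without KO 2) to 17 (without KO 4) with 16 without WT 3 (7.20%, 9.25% and 7.97% of all tested genes, range 6.92% to 11.6%), and 0 calls, and DESeq2 called 1. In HxD the count at an unadjusted p below 0.05, 1 as reported, was 3 by library size only, 2 with DESeq2 and with the length trend (4 as a straight line) and 0 with limma-voom, a filter at 50 counts, only 8 libraries, the replicate block, and block with length trend. Over all tested genes the share in these settings was 3.63% (block with length trend) to 5.4% (DESeq2), with 4.26% by library size only. Without 1 library it was 1 to 4 (4 without HxD 1; 3.87% to 5.24% of all tested genes), with medians of -0.07 to 0.05 and 0 calls. In KO against HxD the median was 0.058 with the length trend removed, 0.051 with longest transcripts, 0.063 fitted without the members, 0.072 without ribosomal protein genes too and 0.065 with the block. The count, 8 as reported, was 13 with upper-quartile factors or DESeq2 (11.7% and 14.2% of all tested genes). It was 5 without a filter (9.54%), with the block (10.5%), with longest transcripts (11.8%), or with block and length trend (10.8%). Leaving out 1 library gave 3 (KO 2) to 17 (HxD 2 or KO 4), with 4 without HxD 1, HxD 3, HxD 4 or KO 3 (8.75% to 14.7% of all tested genes), and medians of 0.14 to 0.27. Calls numbered 2 with DESeq2, 0 at an adjusted p below 0.01, 0 with every length trend, 0 with the block, and 0 to 1 without a library. Cox6b1 in KO against WT turned to -0.0093 with the longest transcripts and -0.0015 with a straight line. The cause of these shifts was not tested. Same-numbered libraries did not deviate together (r = -0.0575 to 0.0645), and 1 of 12 correlated best with its own number in both other genotypes. The replicate block gave Uqcr10 in KO against HxD an adjusted p of 0.138. Medians without members that jump or share exon sequence (35 left) were 0.21, 0.00 and 0.20. Cox8b, Cox8c, Cox7b2, Cox6b2 and Sdhc held few or no counts.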

Other observations

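Promoter letters and RNA were set side by side for the 48 tested members with a promoter sequence. In KO against WT the median log2 fold change was 0.15 for the 5 members with the NRF1 core and 0.23 for the 43 without. It was 0.23 both for the 11 with the ETS motif and for the 37 without, and 0.14 for the 20 with the Sp1 motif against 0.27 for the 28 without. The YY1 core gave 0.29 for 4 members against 0.23 for 44, the letters TATAAA 0.34 for 4 against 0.23 for 44, and the ERR motif 0.11 for 1 member. Members with more than 19 CpG sites in the promoter window had a median of 0.20 (23 members) and the others of 0.26 (25 members). In HxD against WT the corresponding medians for CpG were 0.00 and -0.01. These are descriptions over genes of the same libraries, without a test.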
